A study of Homo sapiens with 18 samples.

Results

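The genes described here encode the replicative DNA helicase and the factors that load or activate it: MCM2, MCM3, MCM4, MCM5, MCM6, MCM7, MCM10, CDC6 and CDC45. They were chosen by symbol in the platform annotation, and the main probe set of each gene was the one with the highest mean over all 18 arrays. They make up 9 of 11963 genes that probe sets naming exactly 1 gene cover, and 15 of 19064 such probe sets. All 9 genes and all 15 probe sets passed the filter on low values, which left 7828 genes and 11824 probe sets. The study used U251, an established human glioblastoma line. The groups were cells without transfection (Control), cells transfected with a negative siRNA (siNeg) and cells transfected with siRNA to MPS1 (siMPS1), each profiled at 6, 24 and 48 h on Affymetrix arrays with 2 arrays in each of the 9 groups. The labels give 2 pmol of siRNA for transfection and name no further alteration of the cells. The sources used here give neither the siRNA sequences nor the number of cultures behind each pair of arrays, and p-values therefore measure only the spread between these arrays.

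MCM2 to MCM7 form a ring that encircles DNA. During G1 the origin recognition complex, CDC6 and CDT1 load the ring in an inactive form onto replication origins, a step called licensing, and in S phase CDC45 and the GINS complex join it to make the active helicase, with MCM10 acting at this activation step. Many of these genes are known targets of E2F transcription factors, which act at the G1/S boundary, and proliferating glioma cells are known to express them. MPS1, encoded by TTK, is a kinase of the spindle assembly checkpoint in mitosis.

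The 250 bases before the annotated start of transcription are shown for MCM6, MCM3 and MCM7. MCM6 and MCM3 are the members with the largest siMPS1 minus siNeg differences at 24 h. These 3 are the members whose windows held an E2F-type motif ending in C. Sequences are from RefSeq on build GRCh38.p14, written 5′ to 3′ on the strand of the gene, and capitals mark each match to TTTCCCGC, TTTCGCGC, TTTGCCGC or TTTGGCGC on either strand.
MCM6, chr2:135876444-135876693, minus strand: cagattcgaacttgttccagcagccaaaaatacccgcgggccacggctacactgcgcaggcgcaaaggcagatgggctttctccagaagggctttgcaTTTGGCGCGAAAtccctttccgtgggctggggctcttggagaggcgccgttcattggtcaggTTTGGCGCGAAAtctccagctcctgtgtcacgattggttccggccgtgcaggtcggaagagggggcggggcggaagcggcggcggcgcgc
MCM3, chr6:52284743-52284992, minus strand: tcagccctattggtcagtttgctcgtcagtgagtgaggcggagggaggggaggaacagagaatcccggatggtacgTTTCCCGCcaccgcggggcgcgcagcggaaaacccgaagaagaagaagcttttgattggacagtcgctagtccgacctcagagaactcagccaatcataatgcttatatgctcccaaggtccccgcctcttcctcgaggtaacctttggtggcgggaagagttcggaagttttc
MCM7, chr7:100101398-100101647, minus strand: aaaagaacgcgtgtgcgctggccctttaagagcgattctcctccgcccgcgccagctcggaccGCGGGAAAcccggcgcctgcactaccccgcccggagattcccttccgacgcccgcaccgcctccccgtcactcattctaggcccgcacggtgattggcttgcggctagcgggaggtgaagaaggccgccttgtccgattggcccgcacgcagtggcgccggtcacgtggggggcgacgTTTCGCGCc
RefSeq windows were found for 7 of the 9 members, in 11 windows, and there was none in the table used for MCM4 and MCM5. MCM7 and CDC45 had several windows each. The MCM6 window held 2 separate stretches in capitals, starting 152 and 90 bases before the start site, and in each a TTTGGCGC on the printed strand overlaps a TTTCGCGC on the other, which makes 4 matches. MCM3 had 1 match, 174 bases before the start, and the MCM7 window shown had 2, at 187 and 9 bases. These 3 members stand against 3.4% of 27305 genes, and 2.79% of 35116 windows, that held at least 1 such match. The same motifs ending in G (TTTCCCGG, TTTCGCGG, TTTGCCGG, TTTGGCGG) were present for MCM7 (in another window), CDC6 and CDC45, against 3.15% of genes. CCAAT, on either strand, was present for 6 of the 7 members with a window, all but MCM2, against 37.0% of genes. A match is only a run of letters in a window and was not tested as a binding site.

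Signals are MAS5 values returned to the linear scale, and differences are on the scale of log2(signal + 3), where the pseudocount of 3 makes the change of dim genes look smaller. A gene was called when the adjusted p of limma's moderated test, after Benjamini and Hochberg over the 7828 genes of a contrast, was under 0.05. The number of arrays limits the precision. The arrays read RNA from whole cultures, so that fewer cells in a phase of the cycle and less RNA per cell cannot be told apart. The targeted gene, TTK, was lower in both siMPS1 arrays than in both siNeg arrays at each time, with group means on the log2 scale of 4.17 against 5.60 at 6 h, 4.99 against 6.87 at 24 h and 4.52 against 6.82 at 48 h. The TTK differences were -1.43, -1.88 and -2.30 (limma, adjusted p = 0.000807, 8.87e-06 and 2.35e-07). The markers VIM, NES, CD44, FABP7 and SOX2 lay above the array median in 18 of 18 arrays, whereas GFAP did so in 3 and S100B, AQP4 and OLIG2 in 0. Of the markers of other cell types, the epithelial genes EPCAM, CDH1, KRT19 and KRT5 and all blood and endothelial genes measured were above it in 0 arrays, and CLDN4 in 18. Of the neuronal genes, SYT1 was above it in 18 arrays and SNAP25 and STMN2 in 0. Control probe sets set some groups apart. The log2 ratio of 3′ to 5′ signal of ACTB, a measure of RNA integrity, was 0.87 and 0.92 in the siMPS1 arrays at 48 h and ran from 0.10 to 0.43 in the other 16. The 18S ribosomal RNA probe sets read 11.13 (mean log2) in siMPS1 at 48 h against 9.47 in siNeg, and 10.36 in siMPS1 at 24 h against 11.15 in siNeg.

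In untransfected cells most of the helicase genes were lower at 24 h than at 6 h. From 6 to 24 h, 8 of the 9 members fell in Control (43.1% of all genes were called and 15.9% were lower), with a median of -0.56 against 0.12 over all genes. MCM6, a ring subunit, had signals of 415 and 484 at 6 h and of 225 and 207 at 24 h. The times did not overlap, and the fall was 1.05 on the log2 scale (SE 0.10, limma, adjusted p = 1.54e-07). MCM3, the neighbour of MCM5 in the ring, went from 477 and 488 to 302 and 272, a fall of 0.75 on the log2 scale. MCM2, MCM10, MCM4, MCM7, MCM5 and CDC6 fell by 0.65, 0.63, 0.56, 0.54, 0.44 and 0.44. The MCM5 fall lost its call without Control at 6 h replicate 2 (-0.23, adjusted p = 0.134). CDC45, which joins the ring when the helicase is activated, had 118 and 96.6 at 6 h and 119 and 152 at 24 h, and its difference of 0.32 did not pass (adjusted p = 0.0929), except without Control at 24 h replicate 1 (0.50, adjusted p = 0.0356).

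**Figure D1:**
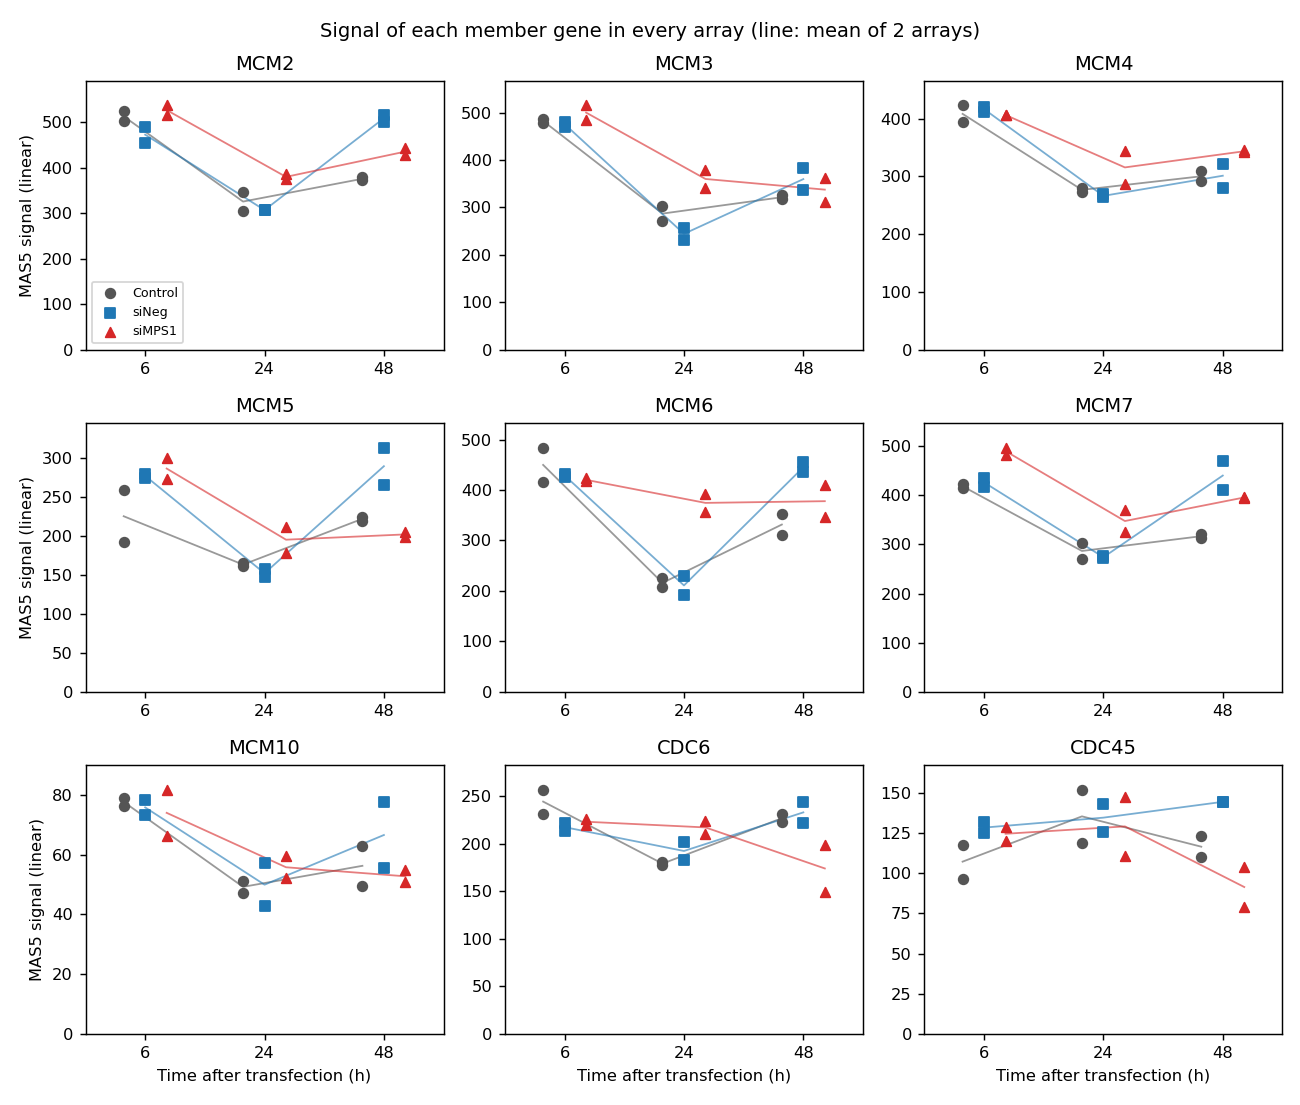
Linear MAS5 signal of the main probe set of each gene in every array, by time (h), with grey circles for Control, blue squares for siNeg, red triangles for siMPS1 and lines through the means of 2 arrays. At 24 h the siMPS1 arrays of MCM6, at 357 and 392, lie above the Control and siNeg arrays, which run from 192 to 229.

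From 24 to 48 h, 4 of the 9 members rose in Control, namely MCM6 (0.61), MCM5 (0.44), CDC6 (0.34) and MCM2 (0.21), where 19.6% of all genes were called and 8% were higher. The MCM6 rise kept its call with each array left out, and the others did not. Without Control at 24 h replicate 1, 24 h replicate 2, 48 h replicate 1 or 48 h replicate 2 the number of members called was 2, 1, 1 and 1. CDC6, the licensing factor that binds the origin recognition complex, was 0.33, 0.35, 0.31 and 0.36 in those 4 fits, with adjusted p from 0.0858 to 0.137, and with the mean of its probe sets it was 0.19 (adjusted p = 0.130). MCM5 was 0.45, 0.42, 0.42 and 0.45 (adjusted p from 0.0501 to 0.0771), and 0.30 with the mean of its probe sets (adjusted p = 0.0630). MCM3 (0.28) and MCM7 (0.26) were called under median centring, against 0.16 and 0.14 without it. MCM2 lost its call without Control at 24 h replicate 2 (0.11), at 48 h replicate 1 (0.22) or replicate 2 (0.19), and, with an unchanged value of 0.21, without either siNeg array at 24 h (adjusted p = 0.0502 in both).

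The time courses of siNeg and Control were not tested against each other. In siNeg, 7 members fell from 6 to 24 h (44.3% of genes called, 19.1% lower), with MCM6 at -1.02, MCM3 at -0.95 and MCM5 at -0.85. CDC6 (-0.18) and CDC45 (0.06) did not pass, although CDC6 did with the mean of its probe sets (-0.27). The fall of MCM10 (-0.59) lost its call without siNeg at 24 h replicate 1 (-0.39) or at 6 h replicate 2 (-0.54). From 24 to 48 h, 5 members rose (29.2% called, 13.6% higher): MCM6 by 1.07, MCM5 by 0.91, MCM2 by 0.72, MCM7 by 0.68 and MCM3 by 0.55. MCM6 thus went from 229 and 192 back to 435 and 455, against 425 and 432 at 6 h. Over the same interval the 18S signal went from 11.15 to 9.47 in siNeg and from 10.18 to 10.17 in Control. Its part in these rises was not tested. MCM10 (0.39) was called without siNeg at 24 h replicate 2 (0.59) or at 48 h replicate 1 (0.62), and CDC6 (0.27) without either siMPS1 array at 48 h, at the same value. With the mean of the probe sets, MCM4 (0.47, against 0.17) and CDC6 (0.33) were called.

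With siMPS1, the fall from 6 to 24 h was called for 5 members (47.4% of genes called, 21.1% lower): MCM2, MCM3, MCM4, MCM5 and MCM7, at -0.47, -0.47, -0.37, -0.55 and -0.49. MCM6 had signals of 417 and 423 at 6 h and of 357 and 392 at 24 h. Its difference was -0.17 (SE 0.10, 95% interval -0.38 to 0.05, adjusted p = 0.187). From 24 to 48 h MCM2 rose by 0.20, and CDC45 and CDC6 fell by 0.48 and 0.33 (24.4% called, 12.6% higher and 11.8% lower). These 3 calls were weak, and 0 members were called with no intensity trend or with the compared groups alone in the fit. MCM2 lost its call in 10 of the 18 fits with an array left out, at values from 0.17 to 0.22. CDC45 lost its call without siMPS1 at 24 h replicate 2 (-0.28) or at 48 h replicate 1 (-0.29), and CDC6 without siMPS1 at 24 h replicate 1 (-0.29), 24 h replicate 2 (-0.37) or 48 h replicate 2 (-0.13). MCM7 was called without siMPS1 at 24 h replicate 2 (0.28 against 0.19 with all arrays).

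**Figure D2:**
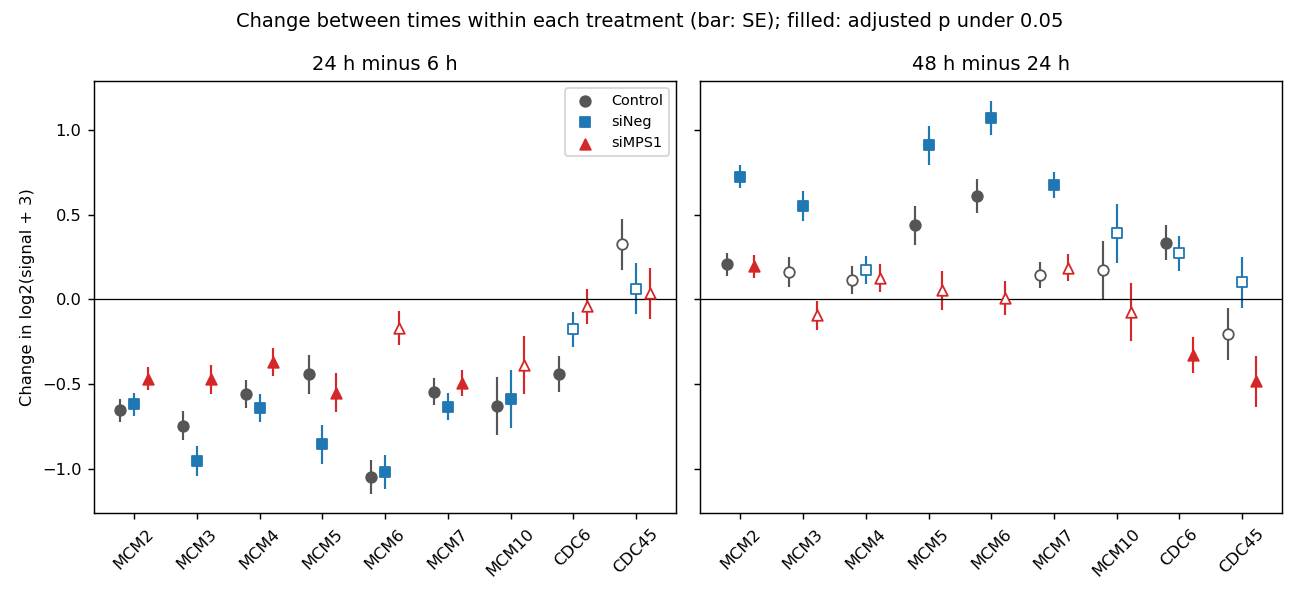
Change in log2(signal + 3) of each gene from 6 to 24 h (left) and from 24 to 48 h (right) in Control (circles), siNeg (squares) and siMPS1 (triangles), with bars of 1 SE and filled symbols for an adjusted p under 0.05. For MCM6 the change from 6 to 24 h is -1.05 in Control, -1.02 in siNeg and -0.17 in siMPS1.

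The comparison of siMPS1 with siNeg asks which genes respond to the MPS1 siRNA beyond transfection itself. At 24 h, 4 ring subunits were higher in siMPS1 than in siNeg (MCM6, MCM3, MCM7 and MCM2) and 0 members were lower. Over all genes 10.9% were called and 5.14% were higher, and the median was 0.31 over the members and 0.00 over all genes. The siMPS1 arrays lay above both siNeg arrays for 7 of the 9 members, against 26.4% of all genes.

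MCM6 had signals of 357 and 392 in siMPS1 and of 229 and 192 in siNeg at 24 h. The groups did not overlap, and MCM6 was 1.77-fold higher (0.82 on the log2 scale, SE 0.10, limma, adjusted p = 3.36e-05). MCM3 was at 341 and 379 in siMPS1 against 256 and 232 in siNeg, a difference of 0.55 (SE 0.09, adjusted p = 0.000485). For MCM6 and MCM3 this call was kept with each of the 18 arrays left out in turn. MCM7, the neighbour of MCM4 in the ring, read 326 and 370 against 272 and 276 and differed by 0.34 (SE 0.08, adjusted p = 0.00960). MCM2, a subunit that also binds histones, was at 375 and 385 against 307 and 307 and differed by 0.31 (SE 0.07, adjusted p = 0.00735). Without siNeg at 24 h replicate 1 the number of members called was 2, with MCM7 at 0.33 (adjusted p = 0.0739) and MCM2 at 0.31 (adjusted p = 0.0538). Without siMPS1 at 24 h replicate 2, MCM7 was 0.25 (adjusted p = 0.135) and MCM2 0.29 (adjusted p = 0.0585), while MCM4 came to 0.37 and was called.

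The other 5 members did not pass at 24 h. MCM5 had 178 and 212 in siMPS1 against 157 and 147 in siNeg, without overlap (0.35, adjusted p = 0.0609). It was called without siMPS1 at 24 h replicate 1 (0.47) or without either Control array at 6 h (0.35 in both), with quantile normalization (0.36) and with the mean of its probe sets (0.37). MCM4 had 344 and 287 against 269 and 264 (0.24, adjusted p = 0.0762), CDC6 had 224 and 211 against 183 and 202 (0.17), and MCM10 had 59.5 and 52.2 against 42.7 and 57.3 (0.16). The siMPS1 and siNeg arrays overlapped for MCM10 and for CDC45, at 111 and 148 against 143 and 126 (-0.07, 95% interval -0.39 to 0.25). The 18S signal moved with this comparison in the opposite direction, as given above, and its part in the result was not tested.

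**Figure D3:**
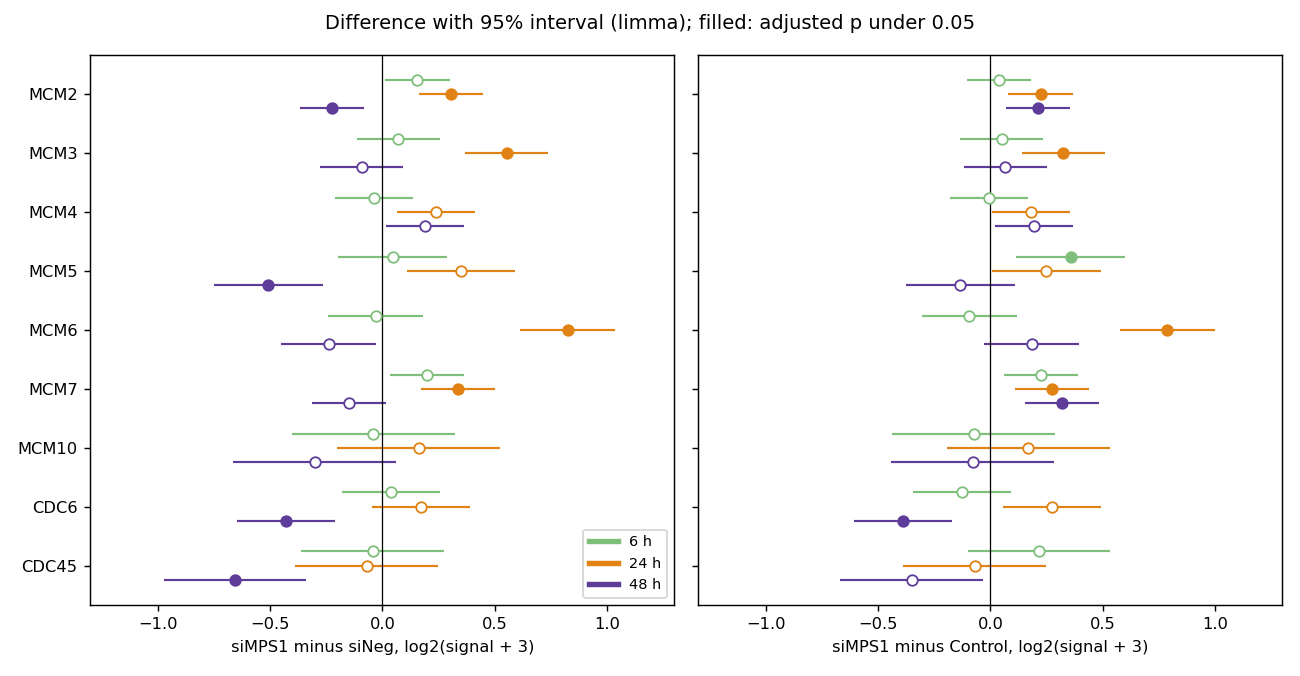
Difference of siMPS1 from siNeg (left) and from Control (right) in log2(signal + 3) for each gene at 6, 24 and 48 h (colours), with 95% intervals from limma and filled symbols for an adjusted p under 0.05. MCM6 at 24 h stands at 0.82 against siNeg and 0.79 against Control.

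At 48 h the picture against siNeg had turned: 0 members were higher and 4 were lower in siMPS1, namely CDC45, MCM5, CDC6 and MCM2. Over all genes 29.2% were called and 13.5% were lower, and the median was -0.24 over the members and 0.03 over all genes. Both siMPS1 arrays lay below both siNeg arrays for 7 members, against 29.1% of all genes. Against Control the same siMPS1 arrays gave 2 members higher, MCM2 among them, and 1 lower (15.3% and 12.2% of all genes). The median over the members there was 0.07. In siNeg itself 4 members were higher than in Control at 48 h (6.82% of all genes). CDC45 had 79.2 and 104 in siMPS1 and 145 and 144 in siNeg, a difference of -0.66 (SE 0.15, limma, adjusted p = 0.00314). Without siMPS1 at 48 h replicate 1 it was -0.47 (adjusted p = 0.0629). MCM5, a ring subunit next to MCM2 and MCM3, had 205 and 199 against 265 and 313 (-0.51, SE 0.12, adjusted p = 0.00279), and this call was kept with each array left out. The MCM5 groups did not overlap.

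CDC6 had 198 and 150 in siMPS1 against 244 and 222 in siNeg (-0.43, SE 0.10, adjusted p = 0.00457), but only -0.23 without siMPS1 at 48 h replicate 2 (adjusted p = 0.114) and -0.36 without siNeg at 48 h replicate 1 (adjusted p = 0.0511). MCM2 had 427 and 444 against 516 and 501 (-0.22, SE 0.07, adjusted p = 0.0193). It was -0.20 without siMPS1 at 48 h replicate 1 or without siNeg at 48 h replicate 1, and was not called in either, and 2 members were called without that siNeg array. It was not called in a fit of the compared groups alone (-0.22, adjusted p = 0.0619). MCM6, with 410 and 346 against 435 and 455, was -0.24 (adjusted p = 0.0832), and -0.36 and called without siMPS1 at 48 h replicate 1. MCM10 (-0.30), MCM7 (-0.15) and MCM3 (-0.09) did not pass. MCM4 was the member with a positive value: 345 and 342 in siMPS1 lay above 281 and 322 in siNeg (0.19, adjusted p = 0.0914), and it was called higher without siNeg at 48 h replicate 2 (0.29). The siMPS1 arrays at 48 h are those with the high ACTB 3′ to 5′ ratio (mean 0.90 against 0.12 in siNeg) and the high 18S signal, and their part in these differences was not tested.

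At 6 h limma called 0 members between siMPS1 and siNeg, where 7.7% of all genes were called. At an unadjusted p under 0.05 there were 2 of the 9 members, against 1833 of 7828 genes. These were MCM7 with 483 and 498 against 418 and 435 (0.20, adjusted p = 0.128) and MCM2 with 537 and 517 against 490 and 455 (0.16, adjusted p = 0.175). In both the siMPS1 arrays lay above the siNeg arrays, as they did for 3 of the 9 members and 2174 of 7828 genes. The second MCM7 probe set went the other way, with 426 and 417 in siMPS1 against 441 and 470 in siNeg (-0.11, adjusted p = 0.388). On their main probe sets the other 7 members lay between -0.04 and 0.07. On some of their further probe sets the arrays of the 2 groups did not overlap at 6 h. Such separation was common: of 7828 genes, 2174 lay above and 1994 below in siMPS1. Limma called 7% of all probe sets at 6 h. On 212141_at of MCM4, siMPS1 read 403.5 and 391 against 333.1 and 354.2 in siNeg. On 212142_at of MCM4, siMPS1 read 65.2 and 65.7 against 57.2 and 54.1 in siNeg. On 203967_at of CDC6, siMPS1 lay lower, with 194.6 and 203.8 against 229.8 and 218.5. The arrays overlapped on 222037_at of MCM4 and on 201755_at of MCM5.

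The change of the siMPS1 minus siNeg difference between times was tested directly. From 6 to 24 h it rose for MCM6 by 0.85 (SE 0.14, limma, adjusted p = 0.00252) and for MCM3 by 0.48 (SE 0.12, adjusted p = 0.0377), against 3.68% of genes called and 1.88% higher. The MCM3 call was lost in 9 of the 18 fits with an array left out, with values from 0.41 to 0.55, and the MCM6 call in 0. From 24 to 48 h it fell for 6 members, where 15.8% of all genes were called and 6.83% were lower. MCM6 fell by 1.06 (SE 0.14, adjusted p = 7.29e-05), MCM5 by 0.86, MCM3 by 0.65, CDC6 by 0.60, MCM2 by 0.53 and MCM7 by 0.49. With each array left out in turn, 6 or 7 members were called. With the mean of the probe sets MCM4 was called too (-0.60, adjusted p = 0.000635, against -0.05 for its main probe set), which makes 7 members. CDC45 (-0.59, adjusted p = 0.0713) was called without siMPS1 at 24 h replicate 1 (-0.79) or at 48 h replicate 2 (-0.77).

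With Control in place of siNeg, an alternative chosen after the data were seen, the change from 24 to 48 h was called for 2 members, CDC6 (-0.66, adjusted p = 0.00588) and MCM6 (-0.60, adjusted p = 0.00906), against 14.5% of genes called and 5.53% lower. MCM5 (-0.38) and MCM3 (-0.26) did not pass, MCM2 was at -0.012 and MCM7 turned to 0.043. From 6 to 24 h the change against Control was called for MCM6 (0.88, adjusted p = 0.000554), against 17.9% of genes called and 7.42% higher, and not for MCM3 (0.27). The siMPS1 arrays are shared by both versions.

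The comparison of siNeg with Control shows the change with transfection of the negative siRNA. Limma called 0 members at 6 h (3.82% of genes) and 0 at 24 h (0.933% of genes). At an unadjusted p under 0.05 there was 1 of the 9 at each time, MCM5 at 6 h (0.31) and MCM3 at 24 h (-0.23). Of all 7828 genes, 1472 at 6 h and 1149 at 24 h were under that threshold. MCM5 was called at 6 h without Control at 6 h replicate 2 (0.52, adjusted p = 0.0317). At 48 h, 4 members were higher in siNeg and 0 were lower (12.9% of genes called, 6.82% higher). MCM7 had 470 and 411 in siNeg and 313 and 320 in Control (0.47, SE 0.08, adjusted p = 0.000709), and MCM2 had 516 and 501 against 372 and 379 (0.43, SE 0.07, adjusted p = 0.000408). MCM6 (0.42) and MCM5 (0.37) were called too. The siNeg arrays lay above the Control arrays for 6 of the 9 members, these 4 among them, against 2269 of 7828 genes. The 18S signal of siNeg lay below that of Control at 48 h (9.47 against 10.17) and above it at 24 h (11.15 against 10.18), and its part in these differences was not tested.

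Of these calls at 48 h, MCM7 and MCM2 were kept with each array left out. MCM6 lost its call without Control at 48 h replicate 1 (0.33) or without siNeg at 48 h replicate 2 (0.39), and 2 members were called in both of these fits. MCM5 lost its call without Control at 48 h replicate 1 (0.39) or replicate 2 (0.36), without siNeg at 48 h replicate 2 (0.26) and without either siNeg array at 6 h (0.37 in both), and also under median centring (0.34, adjusted p = 0.0633). The siNeg arrays at 48 h serve in this comparison and in siMPS1 minus siNeg with opposite signs. A high siNeg signal therefore enters both.

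Against Control, 4 members were higher in siMPS1 at 24 h (12.7% of genes called, 5.49% higher): MCM6 with 357 and 392 against 225 and 207 (0.79, SE 0.10, limma, adjusted p = 4.92e-05), MCM3 (0.32), MCM7 (0.28) and MCM2 (0.22). The MCM6 call was kept with each array left out. MCM3 was 0.25 without Control at 24 h replicate 2 and 0.25 without siMPS1 at 24 h replicate 2, and MCM2 was 0.13 and 0.20 in the same fits, in which 2 members were called. MCM2 was also lost without siMPS1 at 24 h replicate 1 (0.24), and MCM7 without Control at 24 h replicate 1 (0.19) or siMPS1 at 24 h replicate 2 (0.18). MCM4 was called without this last array (0.31) and with the mean of its probe sets (0.24), and CDC6 (0.27, adjusted p = 0.0950) without either siMPS1 array at 48 h, at the same value, and under median centring (0.35). With no intensity trend, or with the compared groups alone in the fit, MCM6 was the 1 member called.

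At 48 h, MCM7 with 394 and 397 against 313 and 320 (0.32, adjusted p = 0.00584) and MCM2 with 427 and 444 against 372 and 379 (0.21, adjusted p = 0.0276) were higher in siMPS1 than in Control. CDC6 with 198 and 150 against 231 and 223 was lower (-0.39, adjusted p = 0.00951). On the second MCM7 probe set, 210983_s_at, siMPS1 read 326.2 and 353.2 against 325.7 and 286.6 in Control at 48 h. At 6 h that probe set lay lower in siMPS1, with 426.5 and 416.6 against 428.4 and 451. Over all genes 27.5% were called at 48 h, 15.3% higher and 12.2% lower. Without Control at 48 h replicate 1 only MCM7 was called, with MCM2 at 0.20 and CDC6 at -0.37. MCM2 was lost without any 1 of the 4 arrays compared (0.18 to 0.24) and under median centring (0.17, adjusted p = 0.109), and CDC6 also without siMPS1 at 48 h replicate 2 (-0.19). CDC45 was called lower without that array (-0.54, against -0.35 with all arrays). At 6 h, MCM5 was higher, with 273 and 299 against 192 and 258 (0.36, adjusted p = 0.0422; 16.6% of genes called, 9.29% higher). That call was lost in 11 of the 18 fits with an array left out, with values from 0.15 without Control at 6 h replicate 1 to 0.42. MCM7 (0.23, adjusted p = 0.0557) was called without either siMPS1 array at 24 h or either siNeg array at 48 h, and with quantile normalization (0.27).

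The probe sets of a gene did not always give the same result (4 members have more than 1). Over all probe sets tested, 10.1% were called between siMPS1 and siNeg at 24 h and 28.9% at 48 h. MCM4 has 4. At 24 h its main probe set was not called (0.24, adjusted p = 0.0827), while 212141_at (0.38), 222037_at (0.51) and 212142_at (0.49) were higher in siMPS1. At 48 h the probe sets of MCM4 went apart. The main one, 222036_s_at, was at 0.19 and 222037_at at 0.13, neither called, whereas 212141_at (-0.27, adjusted p = 0.0128) and 212142_at (-0.84, adjusted p = 0.000138) were lower. On 212142_at the siMPS1 arrays read 30.9 and 36.1 and the siNeg arrays 64.2 and 60.1. Averaged over its probe sets, MCM4 was lower at 48 h (-0.20, adjusted p = 0.0458) and higher at 24 h (0.41, adjusted p = 0.00155), so the direction for MCM4 at 48 h depends on the probe set.

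For MCM5 both probe sets were lower at 48 h, 216237_s_at at -0.51 and 201755_at at -0.80, with 56.8 and 48.9 in siMPS1 against 86.4 and 102 in siNeg on the latter. Both CDC6 probe sets were also lower (-0.43 and -0.63). MCM7 differed between its 2 probe sets at 48 h. The main one, 208795_s_at, was not called (-0.15), and 210983_s_at was lower, with 326 and 353 in siMPS1 against 451 and 454 in siNeg (-0.41, adjusted p = 0.000279). Both were higher at 24 h (0.34 and 0.24), and their mean was lower at 48 h (-0.28, adjusted p = 0.00219). The position of these probe sets along their transcripts was not analysed here.

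**Figure D4:**
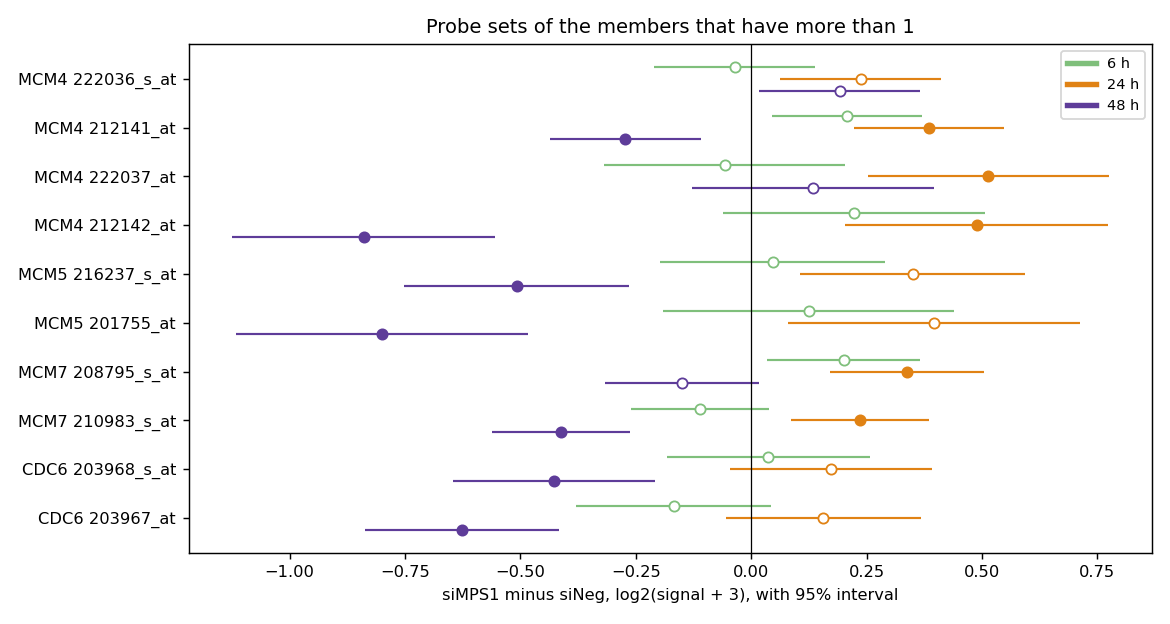
Difference of siMPS1 from siNeg in log2(signal + 3) at 6, 24 and 48 h for each probe set of MCM4, MCM5, MCM7 and CDC6, with 95% intervals and filled symbols for an adjusted p under 0.05 over 11824 probe sets. At 48 h the 4 probe sets of MCM4 run from -0.84 to 0.19.

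With each member centred on its own mean over the arrays, the mean of the 9 was lowest in the Control and siNeg arrays at 24 h, from -0.37 to -0.31. It stood at -0.08 and -0.01 in siMPS1 at 24 h, at -0.09 and -0.10 in Control at 48 h, and at -0.06 and -0.12 in siMPS1 at 48 h. The siMPS1 arrays at 48 h overlapped with both of these groups, which did not overlap with each other. It was 0.13 and 0.22 in siNeg at 48 h and from 0.20 to 0.29 in the 6 arrays at 6 h, which overlapped with siNeg at 48 h. Over the 18 arrays, which share times and treatments, the correlation of a member with the mean of the other 8 was 0.92 for MCM2, 0.91 for MCM3, 0.89 for MCM7 and 0.87 for both MCM5 and MCM6. It was 0.80 for MCM10, 0.78 for MCM4, 0.59 for CDC6 and -0.16 for CDC45. The median over the 36 pairs was 0.68, and the highest value was 0.94, for MCM2 with MCM7. CDC45 thus stood apart from the ring subunits in its course, without the dip at 24 h.

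By the rule of highest correlation with that mean over the 18 arrays, the 10 genes outside the members with the most similar course were PLAT (0.95), LAMA4 (0.94), LTBP2 (0.94), RGS4 (0.92), PLAU (0.90), PHGDH (0.90), TMEM97 (0.89), FABP7 (0.89), EFEMP1 (0.89) and VCL (0.89). PLAT and PLAU encode plasminogen activators and LAMA4 a laminin chain. The siMPS1 and siNeg arrays entered the correlations by which the 10 genes were chosen. Signs like those of the members therefore follow in part from that choice. The siMPS1 minus siNeg differences of these genes, given without a test, were positive at 24 h for all 10, from 0.058 (FABP7) to 0.58 (LTBP2). At 48 h they were negative for 9, down to -0.88 (EFEMP1), and 0.030 for PHGDH, a serine synthesis enzyme. Among the pathway genes below, PCNA (0.85) and MCMBP (0.82) had the highest values, and CDKN1B (-0.79) and CCNA2 (-0.74) the lowest.

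The partners of the helicase in licensing and origin firing were described by a list of 24 genes, of which 21 were tested. Between siMPS1 and siNeg, 0 were higher and 2 lower at 6 h, 1 higher and 2 lower at 24 h, and 1 higher and 7 lower at 48 h, with medians of -0.08, 0.02 and -0.09 (0.01, 0.00 and 0.03 over all genes). The share of all genes called in these 3 comparisons was 7.7%, 10.9% and 29.2%. At 6 h, DBF4, the regulatory subunit of the CDC7 kinase that activates the ring, was at -0.65 (limma, adjusted p = 0.000706) and GINS3 at -0.46. GINS1 (-0.29) was not called. GINS3 lost its call without siNeg at 6 h replicate 1 (-0.53) or replicate 2 (-0.40) or siMPS1 at 6 h replicate 2 (-0.40), and GINS1 gained one without siMPS1 at 6 h replicate 1 (-0.44). With the mean of its probe sets GINS3 was -0.26 (adjusted p = 0.122). At 24 h, RECQL4, a helicase needed for origin firing, was higher (0.67, adjusted p = 0.0464) and DBF4 (-0.33) and ORC3, of the origin recognition complex, (-0.50) were lower. These 3 calls were weak. DBF4 was lost without any 1 of the 4 arrays compared (-0.37 to -0.28), and RECQL4 in 15 of the 18 fits with an array left out, with 0.32 without siMPS1 at 24 h replicate 2. ORC3 was lost without siNeg at 24 h replicate 1 (-0.42) or replicate 2 (-0.59) or siMPS1 at 24 h replicate 2 (-0.33). At 48 h the lower genes were led by ORC3 (-1.02), GINS4 (-0.82) and DONSON (-0.64). DBF4 was called lower too, but not with the compared groups alone in the fit (-0.28, limma, adjusted p = 0.0679). That call was also lost in 3 fits with an array left out (-0.28 to -0.17). MCM3AP (0.32), named after its value was seen, was the higher gene. Over the alternatives the counts at 6, 24 and 48 h ran from 1 to 3, 0 to 3 and 4 to 9, with the lowest at 48 h without siMPS1 at 48 h replicate 2.

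Of 23 genes of the replication fork, which make and join DNA behind the helicase, all were tested, and the counts stand against the same 7.7%, 10.9% and 29.2% of all genes called. At 6 h, 1 was higher (POLE, 0.51) and 1 lower (RFC3, -0.33), and TIPIN (-0.33) was not called. The POLE call was lost in 10 of the 18 fits with an array left out (0.33 to 0.68) and the RFC3 call in 16 (-0.38 to -0.28). TIPIN was called, at the same value, without either Control array at 24 h or either siNeg array at 48 h. At 24 h 4 were higher and 0 lower: the clamp loader subunit RFC4 (0.32, limma, adjusted p = 0.00209), the polymerase subunits POLE2 (0.56) and POLA1 (0.41) and the single-strand binding protein RPA1 (0.23, named after its value was seen). RFC4 kept its call with each array left out. POLE2 lost its call without siNeg at 24 h replicate 1 (0.40) or siMPS1 at 24 h replicate 1 (0.48) or replicate 2 (0.64), and POLA1 without siNeg at 24 h replicate 1 (0.28) or siMPS1 at 24 h replicate 2 (0.33). At 48 h 0 were higher and 6 lower, led by RFC3 (-0.997), the primase PRIM1 (-0.88) and the sliding clamp PCNA (-0.51), and 13.5% of all genes were lower. The medians were -0.07, 0.16 and -0.21. Over the alternatives the counts ran from 0 to 2, 1 to 4 and 5 to 8. The lowest count at 24 h was that of the fit on the compared groups alone.

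Of 24 G1/S regulators, 22 were tested, again against 7.7%, 10.9% and 29.2% of all genes called. CCNE2, a cyclin of S phase entry, was lower in siMPS1 at all 3 times (-0.97, -0.76 and -1.28; limma, adjusted p = 0.000632, 0.00146 and 1.65e-06). At 6 h CCNA2, the S and G2 cyclin, was also lower (-0.61) and CCND1, a G1 cyclin, was higher (0.24), 1 higher and 2 lower in all. CCND1 lost its call without any 1 of the 4 arrays compared (0.22 to 0.27), and CCNA2 without siNeg at 6 h replicate 2 (-0.57) or siMPS1 at 6 h replicate 2 (-0.55). CCND1 was 0.092 with the mean of its probe sets (adjusted p = 0.336) and 0.14 with quantile normalization (adjusted p = 0.114), and TFDP1 was called at 6 h under both settings (0.33 and 0.20). At 24 h 2 were higher, the E2F family gene E2F3 (0.44) and the E2F partner TFDP1 (0.23), and 3 lower, CCNE2 with CDK6 (-0.89) and CCNE1 (-0.54), both named after their values were seen. E2F3 lost its call without siNeg at 24 h replicate 2 (0.42) or siMPS1 at 24 h replicate 1 (0.34), and TFDP1 without either siNeg array at 24 h (0.24 and 0.21) or siMPS1 at 24 h replicate 2 (0.21), and TFDP1 was 0.097 with the mean of its probe sets (adjusted p = 0.571). At 48 h 4 were higher and 6 lower. CDKN1A, an inhibitor of cyclin-dependent kinases, was 2.76-fold higher (1.47, adjusted p = 7.22e-07), and CCND1 was at 0.38. CCNA2, not called on its main probe set, was lower with the mean of its probe sets (-0.47, limma, adjusted p = 0.000272). The medians were -0.10, 0.02 and -0.11, and over the alternatives the counts of called genes ran from 1 to 4, 1 to 6 and 8 to 12. The lowest counts at 6 and 24 h came without siNeg replicate 2 of that time.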

How the data were processed

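RNA of U251 cells was measured on 18 Affymetrix arrays, 9 groups of 2. The deposited table holds log2 values. The submitters' processing notes name MAS5, and base 2 was taken from the values themselves, which as powers of 2 have a trimmed mean (2% trimmed) between 100.122 and 100.134 in every array. Of 22277 probe sets, 19064 name exactly 1 gene in the platform annotation table and were kept. A threshold was set at the mean log2(signal + 3) below which 40% of all probe sets lie, array controls left out. Kept probe sets below it were then removed. The brightest remaining probe set on average stands for its gene, which left 7828 genes.

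A model with 1 mean per group was fitted by limma 3.58.1 (R 4.3.3) over all 18 arrays (9 residual degrees of freedom, intensity trend, two-sided tests), with Benjamini-Hochberg adjustment within each contrast. The script was tested on simulated data. Fits on all probe sets used the same model. Named genes are the members, TTK, the 3 smallest p of each of 3 pathway lists in siMPS1 minus siNeg at each time, and the 10 genes most like the members. The members and the lists were chosen with earlier results of these data known. Alternatives covered the pseudocount, normalization, filter, probe sets, intensity trend, block, the groups fitted and each array left out.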

Additional observations from a re-analysis of the deposited data

Results flagged for a closer look

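The genes below drew attention because the siMPS1 minus siNeg difference changed between times, by limma's test of that change at an adjusted p under 0.05. Values are changes on the log2 scale. From 6 to 24 h the difference rose for MCM3 (0.48) and MCM6 (0.85), and among the pathway genes for CCNA2 (0.68) and RFC4 (0.32). From 24 to 48 h it fell for MCM2 (-0.53), MCM3 (-0.65), MCM5 (-0.86), MCM6 (-1.06), MCM7 (-0.49) and CDC6 (-0.60). Among the pathway genes it fell over the same interval for TFDP1 (-0.53), GINS4 (-1.15), DONSON (-0.65), RFC3 (-0.77), RFC4 (-0.42), POLE2 (-0.84), POLA1 (-0.60), PRIM1 (-1.08) and PCNA (-0.59), and rose for CCND1 (0.26) and CDKN1A (1.28). With the mean of the probe sets of a gene, CCNA2 (-0.68) and CCNE2 (-0.88) were called as falling and E2F3 (0.44) as rising over that interval. They were not called on their main probe sets. CCND1 (0.21) lost its call under that setting. MCM6 and MCM3 appear in both intervals with opposite signs, as does RFC4, so that for these 3 the difference at 24 h lay above that at both other times. With an array left out, the CCND1 change lost its call in 17 of 18 fits, the RFC4 change from 6 to 24 h in 12, the CCNA2 change in 6, the POLA1 change in 4 and the POLE2 change in 2.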

How the results depend on the processing

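With 2 arrays a group, calls near the threshold moved with single arrays. Of 4149 repeats of 153 member results, 3990 kept their side of the threshold, among them 70 uncalled values whose sign turned, 119 lost a call, 38 gained a call and 2 reversed. Reversed means that the sign turned and that the main fit or the repeat was called. In neither of the 2 were both fits called. MCM4 in siMPS1 minus siNeg at 48 h, not called in the main fit, was -0.20 and called with the mean of its probe sets. The MCM7 change of the difference from 24 to 48 h, called in the main fit, was 0.043 and not called with Control in place of siNeg, chosen after the data were seen. Both pseudocounts, 1 and 11, changed 0 of the member calls. The cause of the changes was not tested.

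Members called in siMPS1 minus Control at 6 h (1) became 2 with quantile normalization and 0 with median centring, no filter, mean of probe sets or no intensity trend. In siNeg minus Control at 6 h median centring gave 1. The 6 to 24 h change of the siMPS1 minus siNeg difference (2) gave 1 with no filter, no trend or Control in place of siNeg, and the 24 to 48 h change (6) gave 2 with Control. In Control from 24 to 48 h (4) the mean of probe sets and no trend each gave 2. In siMPS1 minus Control at 24 h (4), no trend and only the compared groups each gave 1, and in siMPS1 from 24 to 48 h (3) each gave 0. The shares of all genes called under these settings are not given here. Median centring moved the median of all genes from 0.04 to -0.12 in siMPS1 minus Control at 6 h, from 0.02 to -0.11 in siNeg minus Control at 6 h and from 0.12 to -0.04 in Control from 6 to 24 h.

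With 1 array left out, a group of 1 was assumed to vary like the others. Counts then ran from 2 to 5 in siMPS1 minus siNeg at 24 h and at 48 h, from 0 to 2, 2 to 5 and 1 to 3 in siMPS1 minus Control at 6, 24 and 48 h, from 0 to 1 and 2 to 4 in siNeg minus Control at 6 and 48 h, from 1 to 4 in Control and 1 to 3 in siMPS1 from 24 to 48 h, and from 1 to 2 in the 6 to 24 h change of the difference.

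Same-numbered arrays shared little deviation over all genes: their deviations from group means correlated from -0.14 to 0.10, over 0.1 in 1 of 36 pairs. These values cannot show whether such arrays came from the same cultures, because an effect on few genes would not be seen. With the replicate block 4 members were called in siMPS1 minus siNeg at 24 h and 4 at 48 h, and 0 member calls changed. Of 2970 repeats of 110 results of TTK and the named pathway genes, chosen after the data were seen, 2800 kept their side of the threshold, among them 24 uncalled values whose sign turned, 151 lost a call, 19 gained a call and 0 reversed. TTK was called lower at each time in all of them.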
